A study of Homo sapiens with 36 samples.

Results

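Auxin by itself was examined in the cytoplasm total RNA of HCT116 cells, a human colon carcinoma line, that express TIR1 and carry no degron on DIS3. TIR1 is the plant F-box protein that brings degron-tagged proteins to the proteasome when auxin is present, so cells with TIR1 and no tagged protein show what the compound does without its intended target. The libraries were chosen by their labels: 3 from control cells given 500 uM auxin for 1 h and 3 from untreated control cells, 6 of the 36 libraries of the series. Beside them stand cytoplasm total RNA libraries of DIS3-AID cells, a CRISPR clone of TIR1-expressing HCT116 with an auxin-inducible degron (AID) on DIS3, with auxin and untreated, and libraries from the chromatin and from the polyA-selected cytoplasm of control cells with and without auxin. Each of these groups holds 3 libraries, auxin was again 500 uM for 1 h, and TIR1 was present in all of them. The labels name the compound only as auxin, list no solvent control, and do not give the promoter that drives TIR1. Since the labels describe technical triplicates, the p-values below rest on the spread among these libraries alone and not on separate cultures.

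Plant auxins include indole compounds such as indole-3-acetic acid. In animal cells several indoles bind the aryl hydrocarbon receptor (AHR), a transcription factor that is activated by ligands, pairs with ARNT in the nucleus and turns on genes of xenobiotic metabolism such as CYP1A1 and CYP1B1, together with the feedback inhibitors TIPARP and AHRR. The nuclear RNA exosome, in which DIS3 is a catalytic subunit, degrades promoter-divergent transcripts, antisense RNAs and unprocessed small RNAs. U3 is a box C/D small nucleolar RNA (snoRNA) that is needed for early cleavages of the ribosomal RNA precursor. Immediate-early genes are transcribed within minutes of a stimulus, without new protein synthesis, and their RNAs are short-lived.

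Some sequences are printed for the genes whose changes recur below. The promoter windows of TIPARP and CYP1A1 are shown because both are AHR targets, and capitals mark GCGTG or its reverse complement CACGC, the core of the AHR response element. They come from RefSeq on GRCh38.p14 and run from 250 bases before to 50 bases after the annotated start, for TIPARP at chr3:156674340-156674639 on the plus strand and for CYP1A1 at chr15:74725479-74725778 on the minus strand.
TIPARP: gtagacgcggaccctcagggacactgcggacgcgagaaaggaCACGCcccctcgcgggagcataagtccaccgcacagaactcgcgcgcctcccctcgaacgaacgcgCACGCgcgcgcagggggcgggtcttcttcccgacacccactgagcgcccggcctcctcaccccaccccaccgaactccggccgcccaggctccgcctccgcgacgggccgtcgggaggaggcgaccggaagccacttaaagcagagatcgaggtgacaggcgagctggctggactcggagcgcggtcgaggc
CYP1A1: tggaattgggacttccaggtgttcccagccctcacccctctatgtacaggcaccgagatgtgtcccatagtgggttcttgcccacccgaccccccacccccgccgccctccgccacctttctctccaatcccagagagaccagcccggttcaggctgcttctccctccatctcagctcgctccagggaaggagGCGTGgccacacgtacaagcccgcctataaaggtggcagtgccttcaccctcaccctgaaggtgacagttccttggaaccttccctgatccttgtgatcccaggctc
The TIPARP window holds 2 matches and was the 1 of its 3 windows with a match, and the CYP1A1 window holds 1. Of all 35116 promoter windows of this length 36.5% hold the motif on either strand. NQO1 and SLC7A5 had a match in their single window, AHRR and NFE2L2 in both of theirs, and CYP1B1 and ALDH3A1 had no window in the table.

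The U3 gene models below, from GENCODE 29 on GRCh38, are shown because a few bases set them apart and reads of one copy can be counted at another. They lie at chr17:19188016-19188232 on the plus strand for SNORD3A, chr17:19063920-19064136 on the minus strand for SNORD3B-2 and chr17:19112420-19112636 on the minus strand for SNORD3D. Capitals mark bases that differ from SNORD3A.
SNORD3A: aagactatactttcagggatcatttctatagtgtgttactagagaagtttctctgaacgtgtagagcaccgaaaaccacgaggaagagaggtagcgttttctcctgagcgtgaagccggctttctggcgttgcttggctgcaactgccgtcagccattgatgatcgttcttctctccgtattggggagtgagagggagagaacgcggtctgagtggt
SNORD3B-2: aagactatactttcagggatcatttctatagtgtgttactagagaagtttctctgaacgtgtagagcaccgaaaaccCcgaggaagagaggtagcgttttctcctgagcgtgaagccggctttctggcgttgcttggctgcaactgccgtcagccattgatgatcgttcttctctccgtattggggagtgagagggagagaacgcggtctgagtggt
SNORD3D: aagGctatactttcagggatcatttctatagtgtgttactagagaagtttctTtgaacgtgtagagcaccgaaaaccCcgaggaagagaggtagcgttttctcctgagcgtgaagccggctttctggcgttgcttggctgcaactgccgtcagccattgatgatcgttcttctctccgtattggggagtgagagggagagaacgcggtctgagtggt
Counting from 1 at the 5′ end, SNORD3B-2 differs from SNORD3A by A78C (99.5% identity) and SNORD3D by A4G, C53T and A78C (98.6%). SNORD3B-1 has the same change as SNORD3B-2, and SNORD3C differs by G108A.

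Library totals were 115.5, 93.3 and 81.2 M counts with auxin and 122.6, 102.9 and 83.3 M without it. Levels are given as CPM, counts relative to library sizes that were corrected by the trimmed mean of M-values (TMM), and changes as log2 ratios of auxin over untreated. DIS3 itself, which carries no degron in these cells, was at 96.5, 90.1 and 92.5 CPM with auxin and 92.4, 91.6 and 87.6 CPM without it (log2 change 0.04 ± 0.05 SE, edgeR adjusted p = 0.95). Of 15 colon epithelial markers 8 were over 1 CPM, with a summed level of 2746 to 2905 CPM in the auxin libraries and 2802 to 2912 CPM in the untreated ones. CDH17, VIL1 and CDX1, markers of differentiated intestine, had at most 10 counts summed over the 3 libraries of either group.

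Auxin replicate 1 stood apart from the other 11 cytoplasm total RNA libraries by low counts of some transcripts, stromal ones among them. It held 145 counts of COL1A2 and 103 of COL3A1, chains of fibrillar collagens, where no other library had more than 2 and 7. By a rule chosen after the counts were seen, at least 20 counts and over 10 times the highest count elsewhere plus 1, 12 features stood out in it with 1082 counts in all, and none did in the other libraries. The fibroblast list, in which only COL1A1 of 8 genes was over 1 CPM, had a summed level of 10.55 to 14.69 CPM with auxin and 11.08 to 11.50 CPM without it. COL1A1 was at 11.9 CPM in auxin replicate 1 and at 10.4 and 12.3 CPM in auxin replicates 2 and 3. PDGFRA had 2 counts summed over the auxin libraries and 7 over the untreated ones. VAV3 and AUTS2 were among the 12 features as well. What part the RNA that stood out in auxin replicate 1 had in the results was not tested. Each of the 11 features below is given also without that library.

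Few features passed the test in the cytoplasm after 1 h of auxin, and the changes were small. Of 23027 features tested with edgeR's quasi-likelihood test at an adjusted p of 0.05 (Benjamini-Hochberg), 11 passed (0.0478%). The 5 that rose (0.0217%) were TIPARP, ARRDC3, MIR181A1HG and the assembled loci XLOC_009819 and XLOC_011138. The 6 that fell (0.0261%) were NABP1, ZC3HAV1L, HJV, SNORD3B-2, AC007952.4 and AC093249.2. Outside the assembled loci the rises lay between 0.41 and 0.81 and the falls between -0.33 and -0.62 on the log2 scale. At an unadjusted p of 0.05 there were 1413 features (6.14%), 688 higher (2.99%) and 725 lower (3.15%). The 95% interval of the change lay within -1 and 1 for 19958 features (86.7%) and within -0.5 and 0.5 for 15178 (65.9%).
Without auxin replicate 1, 4 of the 11 passed: XLOC_009819, NABP1, AC007952.4 and AC093249.2. Of the 6 fits that leave out 1 library, XLOC_009819 passed in 6, NABP1 and AC007952.4 in 5, TIPARP in 2, SNORD3B-2, ZC3HAV1L, AC093249.2, ARRDC3 and XLOC_011138 in 1, and MIR181A1HG and HJV in 0, so most of these calls need all 6 libraries. With the replicate number as a block 107 features passed (0.465%), 28 higher (0.122%) and 79 lower (0.343%). In the fit of the 6 control libraries alone with that block 264 of 21672 passed (1.22%), 66 higher (0.305%) and 198 lower (0.914%).

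**Figure D1:**
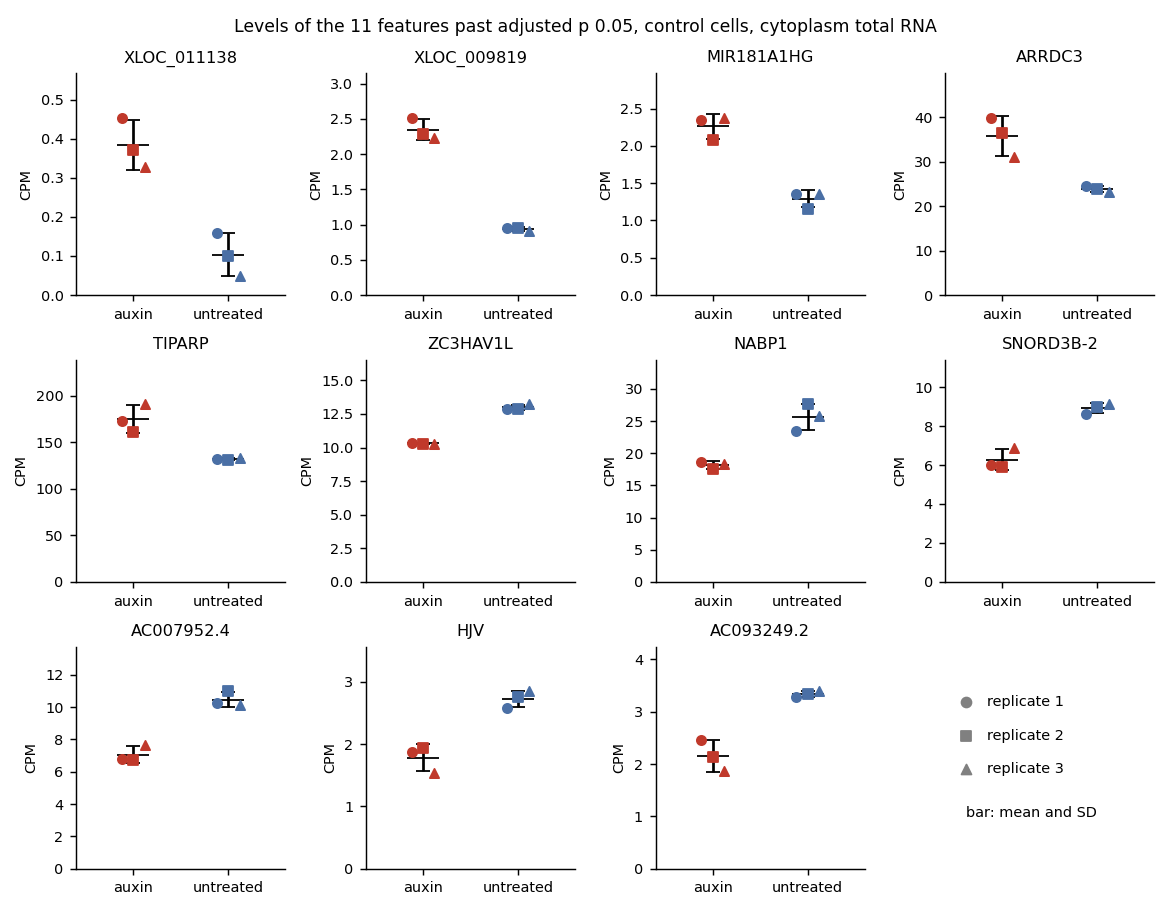
CPM of the 11 features with an adjusted p under 0.05, auxin libraries on the left of each panel and untreated ones on the right; the lines are mean and SD of 3 libraries and the marker shape is the replicate number. In each panel the groups do not overlap, and the named genes differ by less than 2-fold.

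Among the AHR targets TIPARP passed. This gene of a mono-ADP-ribosyltransferase, which AHR induces and which represses AHR in turn (ENSG00000163659.12, hg38 chromosome 3, 156673235 to 156706770, plus strand), was at 173, 161 and 191 CPM with auxin and 132, 131 and 133 CPM without it. All auxin libraries lay above all untreated ones, which were nearly equal. The log2 change was 0.41 ± 0.06 SE (edgeR adjusted p = 0.0332, and 0.0885 without auxin replicate 1).
CYP1B1, a cytochrome P450 that oxidises steroids and xenobiotics, was at 5.24, 4.55 and 6.11 CPM with auxin and 3.735, 3.79 and 3.503 CPM without it. The groups were apart too, and the change of 0.52 ± 0.11 SE had an edgeR adjusted p of 0.112, and of 0.00896 with the replicate block. CYP1B1 shares exon sequence with RMDN2-AS1 on its strand. CYP1A1, a classical AHR-induced P450, was at 2.28, 2.18 and 2.58 CPM with auxin and 1.998, 1.95 and 1.65 CPM without it, also without overlap (0.32 ± 0.13 SE, adjusted p = 0.736).
The other targets had smaller changes, none past the threshold: 0.08 for the quinone reductase NQO1, 0.18 for the aldehyde dehydrogenase ALDH3A1, 0.03 for the AHR repressor AHRR, -0.04 for the antioxidant regulator NFE2L2 (NRF2) and -0.10 for the amino acid transporter SLC7A5. CYP1A2 and UGT1A6 were not tested, with 5 and 3 counts in the auxin libraries and 2 each in the untreated ones. Of the 8 targets tested 1 passed, 2 with the block, and 5 had all auxin libraries above all untreated ones, as did 7.01% of all features (5.74% had them all below). Their median change was 0.13 (0.07 without auxin replicate 3), against 0.00 over all features.

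On chromatin, where RNA still being made is found, separate libraries of control cells had larger changes of the same targets. CYP1A1 was at 4.94, 5.05 and 4.88 CPM with auxin and 1.15, 0.747 and 1.15 CPM without it there, more than 4 times the untreated level (2.23 ± 0.13 SE, edgeR adjusted p = 4.81e-09). TIPARP was at 258, 274 and 229.9 CPM with auxin and 127, 122 and 134 CPM without it (0.99 ± 0.07 SE, adjusted p = 1.16e-07), and CYP1B1 changed by 1.51 ± 0.15 SE (adjusted p = 3.88e-06). AHRR (0.69), NQO1 (0.43), SLC7A5 (0.41) and NFE2L2 (0.18) rose as well, which makes 7 of 8. Over all features 4242 of 24966 passed on chromatin (17.0%), 9.02% higher and 7.97% lower.
The change in the cytoplasm minus that on chromatin was -1.91 ± 0.19 SE for CYP1A1 (edgeR adjusted p = 7.05e-09), -0.99 ± 0.19 SE for CYP1B1 (0.000864), -0.65 ± 0.09 SE for AHRR (1.76e-05) and -0.59 ± 0.10 SE for TIPARP (0.000248). For these 4 the response was thus smaller in the cytoplasm by the test of the difference, which 4.88% of 27418 features passed, 2.27% higher and 2.61% lower in the cytoplasm. AHRR shares exon sequence with PDCD6 on its strand.

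The DIS3-AID cells, whose cytoplasm libraries share no sample with those of control cells, received the same auxin, and 34.3% of features passed there (21.1% higher, 13.2% lower). TIPARP was at 145, 148 and 147 CPM with auxin and 104.5, 123.0 and 122 CPM without it in DIS3-AID cells, again without overlap (0.34 ± 0.06 SE, edgeR adjusted p = 0.00038), and CYP1B1 changed by 0.40 ± 0.12 SE (adjusted p = 0.0127). The auxin response of DIS3-AID cells minus that of control cells was -0.07 ± 0.09 SE for TIPARP (adjusted p = 0.632) and -0.12 ± 0.16 SE for CYP1B1 (0.657), neither past the threshold.
CYP1A1 did differ. It was at 2.72, 3.24 and 3.705 CPM with auxin and 1.15, 1.31 and 1.04 CPM without it in DIS3-AID cells (1.46 ± 0.14 SE, against 0.32 ± 0.13 SE in control cells), a difference of 1.14 ± 0.19 SE (edgeR adjusted p = 0.000118). That test of DIS3-AID against control responses was passed by 19.4% of features, 16.1% higher and 3.31% lower in DIS3-AID cells.

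**Figure D2:**
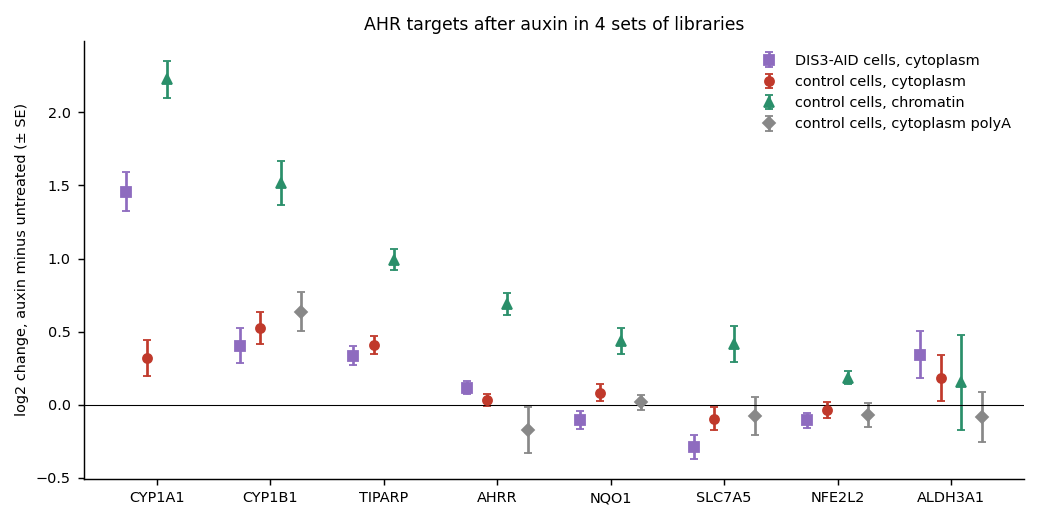
Log2 change with auxin (± SE) of the 8 tested AHR targets in DIS3-AID cytoplasm, control cytoplasm, control chromatin and control polyA RNA, with no point where a gene was not tested. CYP1A1 stands at 1.46 in DIS3-AID cytoplasm, 0.32 in control cytoplasm and 2.23 on control chromatin, and TIPARP at 0.34, 0.41 and 0.99 in the same order.

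No component of the AHR pathway itself passed in control cytoplasm (0 of 8 by edgeR, 0 at an unadjusted p of 0.05 and 0 by DESeq2). The 95% intervals of all 8 lay within -0.5 and 0.5, with -0.07 for the partner ARNT2 and 0.05 for the chaperone HSP90AA1. NRF2 targets, which answer oxidants and electrophiles, gave 0 of 14 by edgeR and 0 by DESeq2, with 1 at an unadjusted p of 0.05, the growth inhibitor OSGIN1 (-0.23 ± 0.09 SE, adjusted p = 0.674).

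ARRDC3, an alpha-arrestin that helps to sort membrane receptors for degradation (ENSG00000113369.8, chromosome 5, 91368724 to 91383359, minus strand), was at 39.9, 36.4 and 31.0 CPM with auxin and 24.5, 23.8 and 23.1 CPM without it. Auxin replicate 1 was the highest and replicate 3 the lowest of the auxin libraries, and all lay above the untreated ones. The log2 change was 0.59 ± 0.10 SE (edgeR adjusted p = 0.0432, and 0.105 without auxin replicate 1). On chromatin its change was 0.03 ± 0.20 SE (adjusted p = 0.944). The cytoplasm change minus the chromatin change, 0.56 ± 0.27 SE, did not pass (edgeR adjusted p = 0.303). In polyA RNA of control cells ARRDC3, whose counts there may come from part of the gene, changed by 0.50 ± 0.11 SE (0.0705). In DIS3-AID cytoplasm it was at 30.4, 28.25 and 24.7 CPM with auxin and 31.0, 31.15 and 25.02 CPM without it, where the groups overlapped (-0.07 ± 0.10 SE, adjusted p = 0.633), and the DIS3-AID response minus the control response was -0.65 ± 0.14 SE (0.00217).
The list of alpha-arrestins and targets of FOXO, the factors that are active when insulin and growth factor signals are low, had 14 members tested. ARRDC3 alone passed, as a rise (0.0217% of all features), 4 had all auxin libraries above the untreated ones (7.01%) and 0 had them all below (5.74%). The median was 0.09, with 0.05 without auxin replicate 1 and 0.14 without auxin replicate 2. CCNG2, an atypical cyclin, was at 15.5, 16.0 and 16.2 CPM with auxin and 12.9, 14.9 and 12.4 CPM without it (0.24 ± 0.08 SE, edgeR adjusted p = 0.507). TXNIP, the glucose-responsive arrestin, was not tested, with 10 counts in the auxin libraries and 0 in the untreated ones.

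MIR181A1HG, the host transcript of microRNAs of the miR-181 family (ENSG00000229989.3, chromosome 1, 198807493 to 198937429, minus strand), was at 2.34, 2.07 and 2.38 CPM with auxin and 1.36, 1.16 and 1.35 CPM without it. The groups were apart, and the log2 change was 0.81 ± 0.14 SE (edgeR adjusted p = 0.0432, and 0.146 without auxin replicate 1). The microRNAs within it are printed because they share the seed in capitals, bases 2 to 8, through which a microRNA finds its targets. They come from RefSeq on GRCh38.p14, at chr1:198859108-198859130 for miR-181a and chr1:198858925-198858947 for miR-181b, minus strand.
hsa-miR-181a-5p: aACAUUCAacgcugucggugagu
hsa-miR-181b-5p: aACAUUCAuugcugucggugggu
The libraries measured the host transcript, not these mature RNAs. On chromatin MIR181A1HG was at 138, 158 and 126.5 CPM with auxin and 89.5, 80.0 and 95.4 CPM without it (0.67 ± 0.11 SE, edgeR adjusted p = 0.000584). In DIS3-AID cytoplasm it changed by 1.03 ± 0.13 SE (adjusted p = 2.28e-06), and the difference from control cells, 0.22 ± 0.19 SE, did not pass (0.47). Of the 36 microRNA host genes tested it was the 1 that passed, 11 had all auxin libraries above the untreated ones and 0 had them all below, where 7.01% and 5.74% of all features did. The list's median was 0.10, and 0.05 without auxin replicate 3. MIR222HG, host of miR-221 and miR-222, was at 19.9, 18.8 and 19.2 CPM with auxin and 15.1, 15.3 and 17.3 CPM without it (0.28 ± 0.08 SE, adjusted p = 0.317), and MIR23AHG changed by 0.53 ± 0.14 SE (0.311).

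The largest changes of the 11 belonged to loci that the authors assembled and that carry only a number. XLOC_009819 was at 2.52, 2.29 and 2.23 CPM with auxin and 0.957, 0.947 and 0.9035 CPM without it. Its groups were far apart, and the log2 change was 1.33 ± 0.10 SE (edgeR adjusted p = 1.66e-06, and 2.59e-05 without auxin replicate 1). It passed in all 14 alternative fits. XLOC_011138 was at 0.455, 0.371 and 0.329 CPM with auxin and 0.1595, 0.0997 and 0.0495 CPM without it, from 52, 34 and 26 counts with auxin and 19, 10 and 4 without it (1.83 ± 0.32 SE, adjusted p = 0.0432, and 0.216 without auxin replicate 1).
Both also rose on control chromatin, by 1.66 ± 0.24 SE for XLOC_009819 and 2.17 ± 0.40 SE for XLOC_011138. In DIS3-AID cytoplasm XLOC_009819 was at 28.2, 29.3 and 29.8 CPM with auxin and 1.49, 1.40 and 1.23 CPM without it, a change of 4.40 ± 0.08 SE, and its response there exceeded that of control cells by 3.07 ± 0.13 SE (edgeR adjusted p = 8.91e-12). For XLOC_011138 the excess was 2.04 ± 0.46 SE (0.00281). They were the 2 of 1433 assembled loci that rose in control cells, where 0 fell and the median was -0.01. In DIS3-AID cells 1122 of the 1433 rose, with a median of 2.62, where 21.1% of all features rose. Whether the loci were assembled from these libraries is not given in the sources used here, so this count is not independent evidence of a rise.

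NABP1, which encodes a single-stranded DNA-binding protein of the DNA damage response (ENSG00000173559.12, chromosome 2, 191678068 to 191696659, plus strand), was the protein-coding gene with the smallest p. It was at 18.7, 17.5 and 18.3 CPM with auxin and 23.5, 27.6 and 25.8 CPM without it. All auxin libraries lay below all untreated ones, and the log2 change was -0.49 ± 0.06 SE (edgeR adjusted p = 0.00328, and 0.00806 without auxin replicate 1). NABP1 shares exon sequence with the RNA family entry RF02271.
In polyA RNA NABP1, whose counts there may come from part of the gene, was at 6.33, 6.75 and 8.20 CPM with auxin and 14.5, 16.2 and 13.9 CPM without it, a change of -1.07 ± 0.11 SE (edgeR adjusted p = 2.68e-06). On chromatin the change was 0.09 ± 0.06 SE (0.353), and the cytoplasm change minus the chromatin change was -0.58 ± 0.09 SE (9.85e-05). It rose in DIS3-AID cytoplasm by 0.33 ± 0.06 SE (0.000292), and the difference from control cells was 0.83 ± 0.09 SE (6.54e-07).

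ZC3HAV1L, a relative of the zinc-finger antiviral protein (ENSG00000146858.7, chromosome 7, 139025706 to 139036029, minus strand), was at 10.4, 10.3 and 10.3 CPM with auxin and 12.9, 12.85 and 13.2 CPM without it. Libraries within each group were nearly equal, and the change of -0.33 ± 0.05 SE was the smallest of the 11 (edgeR adjusted p = 0.0346, and 0.105 without auxin replicate 1). HJV, a co-receptor for bone morphogenetic proteins in iron regulation (ENSG00000168509.19, chromosome 1, 146017468 to 146036746, minus strand), was at 1.88, 1.93 and 1.53 CPM with auxin and 2.585, 2.75 and 2.85 CPM without it (-0.60 ± 0.10 SE, adjusted p = 0.0432, and 0.11 without auxin replicate 1). AC093249.2, a lncRNA (ENSG00000260167.1, chromosome 16, 30585907 to 30608593, plus strand), was at 2.465, 2.13 and 1.87 CPM with auxin and 3.28, 3.34 and 3.39 CPM without it (-0.62 ± 0.10 SE, adjusted p = 0.0432, and 0.0345 without that library).

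SNORD3B-2 was the U3 copy that passed (ENSG00000262074.6, chromosome 17, 19063346 to 19064136, minus strand). It was at 6.02, 5.90 and 6.88 CPM with auxin and 8.62, 9.0 and 9.11 CPM without it, without overlap (-0.51 ± 0.08 SE, edgeR adjusted p = 0.0332, and 0.15 without auxin replicate 1). AC007952.4, a lncRNA that overlaps SNORD3D (ENSG00000262202.4, chromosome 17, 19112000 to 19112636, minus strand), was at 6.775, 6.73 and 7.67 CPM with auxin and 10.25, 10.97 and 10.1 CPM without it (-0.57 ± 0.07 SE, adjusted p = 0.00417, and 0.0345 without auxin replicate 1). SNORD3D, which stands in the table under 2 identifiers, changed by -0.60 ± 0.11 SE (adjusted p = 0.0618, and 0.000435 with the block).
SNORD3A was at 67.6, 62.3 and 52.8 CPM with auxin and 90.8, 71.1 and 61.65 CPM without it. The groups overlapped, although each auxin library lay below the untreated library of its number (-0.29 ± 0.18 SE, edgeR adjusted p = 0.909, and 0.0439 with the block). SNORD3B-1 (-0.44) and SNORD3C (-0.52) had negative changes that did not pass, and SNORD118, the U8 snoRNA of large-subunit RNA processing, had -0.03. SNORD3A, SNORD3C and SNORD118 are named outside the naming rule. How reads that match several copies were counted is not given in the sources used here, so values of single copies are uncertain.
Of the 7 U3 and U8 entries tested 1 fell (0.0261% of all features), 4 with the block (0.343%), and 5 had all auxin libraries below the untreated ones (5.74%). Their median was -0.51, and -0.47 without auxin replicate 1. The 2 SNORD3D identifiers had nearly equal levels and the U3 copies can share reads, so these entries are not independent of each other. The other box C/D snoRNAs had a median of 0.04 with 0 of 117 past the threshold (9 at an unadjusted p of 0.05, 0 by DESeq2). The H/ACA snoRNAs had a median of 0.02 with 0 of 102 past it (9, and 1 by DESeq2). Of all features 6.14% were under that unadjusted p.

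In DIS3-AID cytoplasm all 7 U3 and U8 entries rose with auxin, with a median of 2.50. SNORD3B-2 was at 38.2, 45.0 and 42.8 CPM with auxin and 8.45, 7.47 and 8.78 CPM without it in DIS3-AID cells (2.35 ± 0.08 SE, edgeR adjusted p = 3.85e-14). The DIS3-AID response minus the control response was 2.86 ± 0.11 SE for SNORD3B-2 (adjusted p = 3.03e-12) and 3.03 ± 0.10 SE for AC007952.4 (9.04e-13). On control chromatin 0 of 7 passed, with a median of -0.11. Mean levels there were 0.437 CPM with auxin and 0.438 CPM without it for SNORD3B-2 (0.025 ± 0.226 SE). The SNORD3D entry ENSG00000281000.1 had 0.195 and 0.245 CPM (-0.24 ± 0.40 SE). The cytoplasm change minus the chromatin change did not pass for SNORD3B-2 (-0.54 ± 0.22 SE, edgeR adjusted p = 0.173) or that SNORD3D entry (-0.36 ± 0.41 SE, 0.708).
All 6 features that fell in control cells rose in DIS3-AID cells, and so did 4 of the 5 that rose in control cells, where 21.1% of all features rose. The difference passed for the 6 and for 3 of the 5, but these features were chosen by their control response, which is a term of the difference, so nothing is read from that count. On control chromatin 4 of the 5 rises passed as higher, where 9.02% of all features did. Of the 5 tested falls 0 passed as lower there, where 7.97% of all features did. SNORD3B-2, AC007952.4 and AC093249.2 had means under 1 CPM on chromatin, with SEs of 0.23, 0.22 and 0.15. A fall as large as in the cytoplasm could thus be missed there for SNORD3B-2 and AC007952.4. Their cytoplasm change minus chromatin change did not pass (edgeR adjusted p = 0.173 and 0.204), nor did that of AC093249.2 (0.063). It passed for NABP1 (9.85e-05) and ZC3HAV1L (0.0494).

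Spliceosomal snRNA genes, annotated copies included, gave 0 of 56 by edgeR, 1 by DESeq2 and 13 at an unadjusted p of 0.05. Of these 13, 10 were lower, as 3.15% of all features were. With the block 6 passed, all lower, where 0.343% of all features did. Copies of the same snRNA may share reads, so the entries of this list may not be independent of each other. RNU6-2, a copy of the U6 snRNA, was at 7.07, 7.49 and 7.42 CPM with auxin and 10.00, 9.06 and 8.91 CPM without it, with the groups apart (-0.35 ± 0.07 SE, edgeR adjusted p = 0.114, and 0.0191 with the block). RNU11, the U11 snRNA of the minor spliceosome, was at 4.58, 4.41 and 4.78 CPM with auxin and 6.14, 5.23 and 5.90 CPM without it (-0.33 ± 0.10 SE, adjusted p = 0.445, and 0.0435 with the block). The list's median was -0.04 (0.03 without untreated replicate 1). In DIS3-AID cells it was 2.22, and 48 of the 56 rose there, where 21.1% of all features did.

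Immediate-early genes gave 0 of 44 by edgeR and 4 by DESeq2. At an unadjusted p of 0.05 there were 15, 4 higher and 11 lower, where 2.99% and 3.15% of all features were. The list's median was -0.07, and -0.02 without auxin replicate 1. With the block 3 rose and 3 fell, where 0.122% and 0.343% of all features did. DUSP1, a phosphatase that switches off MAP kinases, was at 33.5, 36.0 and 29.4 CPM with auxin and 23.9, 26.6 and 23.3 CPM without it (0.42 ± 0.10 SE, edgeR adjusted p = 0.184, and 0.000209 with the block). KLF6, a zinc-finger transcription factor, was at 237, 239 and 233.5 CPM with auxin and 196, 206 and 187 CPM without it (0.27 ± 0.05 SE, adjusted p = 0.0955, and 0.00101 with the block). The groups were apart in both, as they were for PPP1R15A, a regulatory subunit of the eIF2-alpha phosphatase, at 66.3, 68.3 and 59.9 CPM with auxin and 52.7, 51.3 and 54.3 CPM without it (0.30 ± 0.07 SE, adjusted p = 0.133, and 0.00516 with the block).
SPRY4, a feedback inhibitor of receptor tyrosine kinase signalling, was at 168, 180.1 and 202 CPM with auxin and 219, 240.2 and 237 CPM without it (-0.34 ± 0.07 SE, edgeR adjusted p = 0.0975, and 0.000168 with the block). MCL1, an anti-apoptotic BCL2 relative, was at 212, 226 and 241 CPM with auxin and 247, 289 and 265 CPM without it (-0.24 ± 0.06 SE, adjusted p = 0.283, and 0.00781 with the block). NR4A1, an orphan nuclear receptor, was at 159.6, 159 and 156 CPM with auxin and 176, 226 and 212 CPM without it (-0.37 ± 0.10 SE, adjusted p = 0.418, and 0.00672 with the block). Auxin replicate 3 lay nearest to the untreated level for DUSP1, KLF6, PPP1R15A, SPRY4 and MCL1, and farthest from it for NR4A1. FOS was at 121, 110.0 and 54.7 CPM with auxin and 45.6, 63.9 and 45.7 CPM without it, with overlapping groups (0.88 ± 0.41 SE, adjusted p = 0.836); MCL1, NR4A1 and FOS were named after their values were seen.
On chromatin PPP1R15A and KLF6 rose by 0.81 ± 0.09 SE and 0.46 ± 0.09 SE (edgeR adjusted p = 1.55e-05 and 0.00179). In DIS3-AID cytoplasm PPP1R15A was at 40.55, 34.9 and 38.5 CPM with auxin and 50.7, 44.7 and 44.8 CPM without it and KLF6 at 143, 127.5 and 127 CPM with auxin and 167.5, 158 and 158 CPM without it. The DIS3-AID response minus the control response was -0.59 ± 0.09 SE for PPP1R15A and -0.55 ± 0.07 SE for KLF6. Both were named by their control rise, which is a term of that difference, so nothing is read from its sign. SPRY4, NR4A1 and MCL1 fell in DIS3-AID cytoplasm too, with changes of -0.43, -0.77 and -0.18 (edgeR adjusted p = 5.06e-05, 5.08e-05 and 0.0336). Their differences from control cells did not pass (0.548, 0.0825 and 0.675). DUSP1 changed by -0.23 there (0.0999). In DIS3-AID cells 31 of the 44 genes were lower and 0 higher, where 13.2% and 21.1% of all features were. By the test of the difference the DIS3-AID response was lower for 12 of the 44 genes, where 3.31% of all features were.

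**Figure D3:**
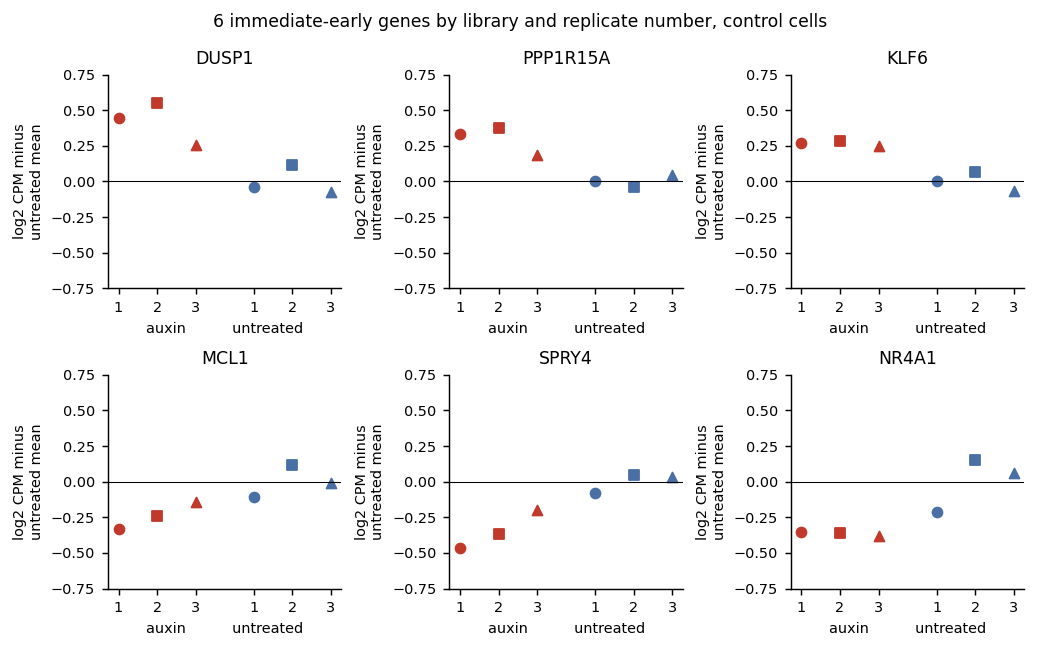
Log2 CPM of each library minus the mean of the untreated libraries for 6 immediate-early genes that passed with the replicate block, auxin replicates 1 to 3 on the left and untreated ones on the right. DUSP1, PPP1R15A and KLF6 lie above 0 and MCL1, SPRY4 and NR4A1 below it in each auxin library.

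Further features passed with the block but not without it, and the naming rule adds 19 of them (5 higher and 14 lower). Their groups were always apart, where 7.01% of all features lay above and 5.74% below. They were chosen by p in these same libraries, so nothing is read from that count. KDM6B, a demethylase of histone H3, was at 34.7, 37.8 and 43.9 CPM with auxin and 47.4, 51.1 and 51.2 CPM without it (-0.36 ± 0.08 SE, edgeR adjusted p = 0.133, and 0.000209 with the block). With the block, the growth factor gene PDGFB (-0.53), the keratin KRT80 (-0.55), the caveolar coat gene CAVIN1 (-0.27), the nuclear phosphatase subunit PPP1R10 (-0.26) and the cell cycle repressor E2F8 (-0.30) fell, and VPS13A, a lipid transfer protein, rose (0.32). ATXN1L (-0.28), ZNF587B (-0.29), which both share exons with a neighbour, and XLOC_003327 (-0.29) fell as well.

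PolyA-selected libraries of control cytoplasm were prepared separately, and whether they came from the same RNA is not given in the sources used here. Their tables hold 75.3% of protein-coding genes with a non-coding transcript model and 0.344% of those without, so levels were not compared with total RNA. With auxin 8 of 16651 features passed in them (0.048%), 2 higher (0.012%) and 6 lower (0.036%). For coding genes these values may cover only their non-coding transcript models, so those of NABP1, TSC22D1, CLK1, VCL and BDNF, among others, may be of part of the gene. All 8 had the same direction in cytoplasm total RNA with groups apart, where 7.01% of all features lay above and 5.74% below. In total RNA 1 of the 8 passed (0.0478% of all features), and 8 with the block (0.465%).
TSC22D1, a leucine-zipper protein induced by TGF-beta, was at 159, 154 and 143 CPM with auxin and 111, 119 and 119 CPM without it in polyA RNA (0.39 ± 0.05 SE, edgeR adjusted p = 0.000333) and at 228, 217.3 and 195 CPM with auxin and 167, 180.5 and 175 CPM without it in total RNA (0.29 ± 0.06 SE, adjusted p = 0.0775). Its change on chromatin was -0.45 ± 0.07 SE (0.00017). DEPP1, a FOXO-induced gene, was the other rise, by 0.76 ± 0.13 SE in polyA RNA, with 0.53 ± 0.11 SE in total RNA (0.121).
Besides NABP1 the falls in polyA RNA were CLK1, a kinase of splicing factors, CREBZF, a leucine-zipper factor, ARMC7, the focal adhesion gene VCL (vinculin) and the neurotrophin BDNF. CLK1 was at 22.4, 20.7 and 20.1 CPM with auxin and 28.7, 32.1 and 30.9 CPM without it in polyA RNA (-0.54 ± 0.07 SE, edgeR adjusted p = 0.000231) and at 11.3, 9.77 and 10.1 CPM with auxin and 13.25, 14.35 and 13.3 CPM without it in total RNA (-0.39 ± 0.07 SE, adjusted p = 0.0744). For the others the polyA change was -0.47 for CREBZF, -0.42 for ARMC7, -0.47 for VCL and -0.32 for BDNF, and the total RNA change -0.33, -0.34, -0.28 and -0.29 in the same order. CLK1, CREBZF, DEPP1 and VCL were named after their values were seen.

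Features with large changes on chromatin had a median change near 0 in the cytoplasm. Of 134 features that rose at least 2-fold on chromatin 87 were tested in the cytoplasm, where their median change was 0.08 and 2 passed, XLOC_009819 and XLOC_011138; 14 of the 87 had all auxin libraries above the untreated ones and 2 all below, as 7.01% and 5.74% of all features did. Of 76 that fell as much 42 were tested, with a median of -0.07, and 0 passed (3 had all auxin libraries below the untreated ones). HAS3, a hyaluronan synthase, rose by 1.43 on chromatin and was at 36.8, 35.0 and 40.1 CPM with auxin and 31.8, 31.5 and 31.25 CPM without it in the cytoplasm, with the groups apart (0.24 ± 0.06 SE, edgeR adjusted p = 0.297). ELF3, an epithelial transcription factor, rose by 1.18 on chromatin and had 0.20 in the cytoplasm, and DHRS3, a retinal reductase, 1.16 and 0.06. These 3 genes were named after their values were seen.

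**Figure D4:**
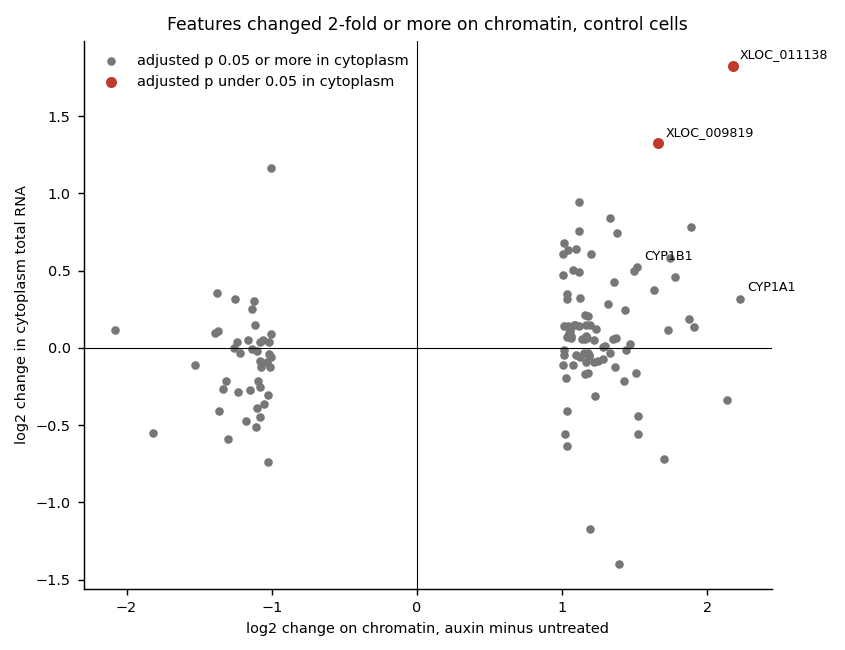
Log2 change with auxin in cytoplasm total RNA (vertical) against that on chromatin (horizontal) for features changed at least 2-fold on chromatin and tested in both, control cells. XLOC_009819 and XLOC_011138, in colour, passed in the cytoplasm; CYP1A1 is at 2.23 on chromatin and 0.32 in the cytoplasm.

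Divergent transcripts, antisense lncRNAs, LINC genes and snoRNA host genes had medians near 0 in control cells. In each of these lists more members were higher than lower at an unadjusted p of 0.05. Of all features 2.99% were higher and 3.15% lower at that level. Divergent transcripts had a median of 1.41 in DIS3-AID cells, where 363 of 441 rose, as 21.1% of all features did. In control cells their median was 0.04, with 0 past the threshold by edgeR and 1 by DESeq2. At an unadjusted p of 0.05 there were 36, 28 higher and 8 lower. MTUS1-DT, the first by p among those of at least 1 CPM, was at 3.57, 3.49 and 3.38 CPM with auxin and 2.64, 2.78 and 2.15 CPM without it in control cells (0.46 ± 0.10 SE, adjusted p = 0.121, and 0.0147 with the block). Antisense lncRNAs had medians of 0.81 in DIS3-AID cells and 0.01 in control cells, where 0 of 841 passed by edgeR and 0 by DESeq2. At an unadjusted p of 0.05 there were 51, 31 higher and 20 lower. LINC genes had 0.50 and 0.06, with 0 of 462 in control cells and 4 by DESeq2. At that unadjusted p there were 35, 26 higher and 9 lower. For snoRNA host genes the medians were 0.45 and 0.04, with 0 of 29 by edgeR, 0 by DESeq2, and 3 higher and 1 lower at that p. Of all 4430 lncRNAs tested 233 were higher and 106 lower at that p. Of 13 nuclear-retained lncRNAs tested 0 passed, with a median of 0.03. At that p 4 were higher and 0 lower: LINC-PINT under 2 identifiers (0.32 and 0.17), NEAT1 (0.19) and FTX (0.185).
Of the exosome's own genes 0 of 13 core and catalytic subunits passed in control cells by edgeR (0 by DESeq2, 1 at an unadjusted p of 0.05) and 0 of 22 adaptors and cofactors (0 and 2), with every interval within -0.5 and 0.5. TENT4A, a non-canonical polyA polymerase of nuclear RNA surveillance, was at 76.8, 82.85 and 90.3 CPM with auxin and 91.5, 101 and 99.0 CPM without it (-0.22 ± 0.07 SE, adjusted p = 0.445, and 0.0216 with the block).

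**Figure D5:**
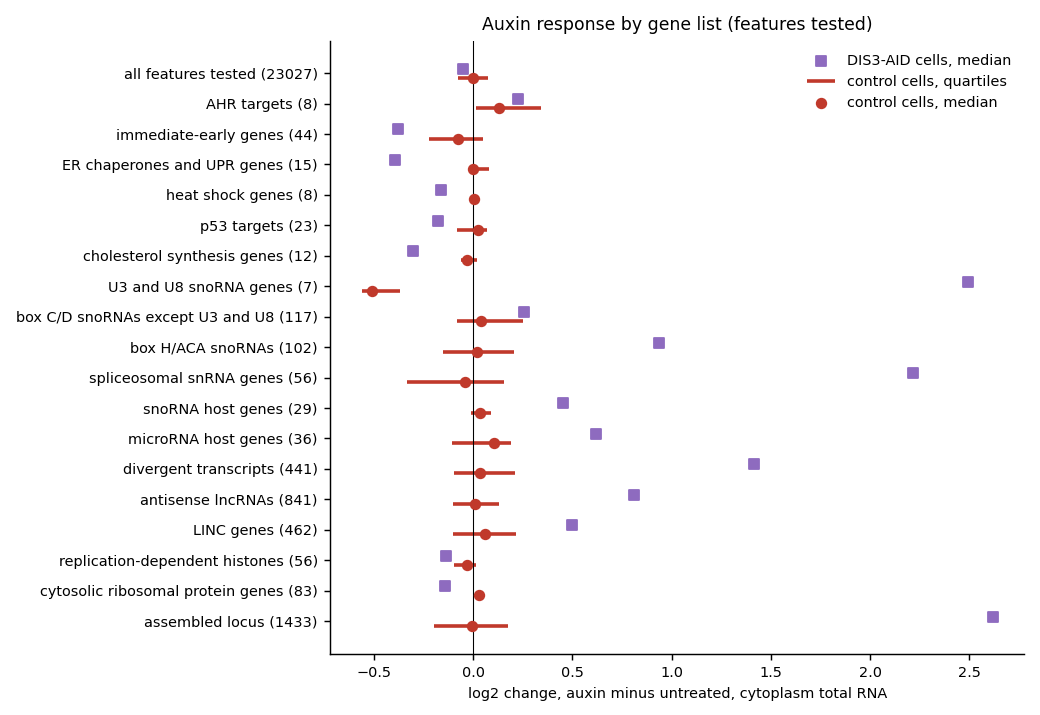
Median log2 change with auxin in cytoplasm total RNA by gene list (features tested in brackets), squares for DIS3-AID cells and circles for control cells, with a bar for the quartiles in control cells. Divergent transcripts are at 1.41 in DIS3-AID cells and 0.04 in control cells, and U3 and U8 snoRNA genes at 2.50 and -0.51.

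Stress and metabolic lists had no member past the threshold by edgeR in control cytoplasm. These were 23 p53 targets, 8 heat shock genes, 16 ATF4 targets, 15 ER chaperone and unfolded protein response genes, 11 hypoxia genes, 12 cholesterol synthesis genes, 12 early NF-kB targets and 5 genes of the metallothionein list. Their medians lay between -0.04 and 0.05. At an unadjusted p of 0.05 there were 3 p53 targets, 1 heat shock gene, 2 ATF4 targets, 3 hypoxia genes, 1 NF-kB target and 1 metallothionein-list gene, and DESeq2 called 1 gene, of the metallothionein list. Of all features 6.14% were under that unadjusted p. All 15 ER genes had intervals within -0.5 and 0.5.
DNAJB1, a co-chaperone of HSP70, was at 251, 269 and 259 CPM with auxin and 281.5, 301 and 287 CPM without it (-0.16 ± 0.05 SE, edgeR adjusted p = 0.462). ADM, the hypoxia-induced peptide adrenomedullin, was at 28.4, 25.03 and 28.4 CPM with auxin and 24.3, 22.1 and 22.0 CPM without it (0.26 ± 0.07 SE, adjusted p = 0.335), and SLC30A1, a zinc exporter, at 35.2, 30.8 and 41.4 CPM with auxin and 45.5, 48.6 and 46.4 CPM without it (-0.39 ± 0.10 SE, adjusted p = 0.237). In each of the 3 genes the groups did not overlap. On chromatin all 8 heat shock genes fell, where 7.97% of all features did, with a median of -0.46, against 0.01 in the cytoplasm.
Ribosomal protein genes had 0 of 83 past the threshold (0 at an unadjusted p of 0.05 and 0 by DESeq2), and 82 intervals lay within -0.5 and 0.5. Mitochondrially encoded mRNAs varied more between libraries: their share of counts was 0.619%, 0.458% and 1.09% with auxin and 0.793%, 0.527% and 0.539% without it, and 3 of their 13 intervals lay within -1 and 1.

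Shares of counts by RNA class did not differ past the threshold. Protein-coding genes took 88.0% ± 0.26 of counts with auxin and 87.9% ± 0.357 without it (SD, n = 3 each; two-sided exact permutation test, p = 0.7), and lncRNAs 4.56% ± 0.0605 and 4.66% ± 0.0505 (exact p = 0.2). U3 and U8 genes took 0.00772% ± 0.000774 with auxin and 0.00962% ± 0.00144 without it (exact p = 0.2). Over the 9 classes the smallest Benjamini-Hochberg adjusted p of this exact test was 0.7875, and 3 against 3 libraries cannot give an exact p below 0.1.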

How the data were processed

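The count tables, 1 per library, were deposited by the authors as whole reads per feature. Per the labels' protocols, total RNA was ribo-depleted and sequenced as stranded libraries. STAR 2.7.3a, Cufflinks 2.2.1, featureCounts 2.0.0 and hg38 are named in the submitters' processing notes, and their parameters are not given in the sources used here. The tables hold 59607 features, 58174 Ensembl genes and 1433 assembled loci without coordinates; symbols and positions came from GENCODE 29.

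The counts were fitted in edgeR 4.0.16 (R 4.3.3, limma 3.58.1) with TMM factors (0.97 to 1.092), filterByExpr at a minimum count of 10 and a robust quasi-likelihood F test. The fit took the 12 cytoplasm total RNA libraries in 4 groups without a block, and p-values were adjusted by Benjamini-Hochberg over all features tested. The biological coefficient of variation was 6.6%. Chromatin and polyA libraries were fitted the same way, and cytoplasm minus chromatin in 1 fit of both. Tables and exact permutation tests were made in Python 3.11.15 (pandas 2.3.3, scipy 1.17.1), and the scripts were tested on simulated data. DESeq2 1.42.0, other scaling, other filters, the replicate block and leaving out each library were the alternatives.

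Library totals ran from 81.2 to 122.6 M counts, so counting error is small beside the spread between libraries except at features of few counts. Replicates of a group differed by 5.51 to 31.55 chi-square units per degree of freedom, so no library was a duplicate. The shared replicate numbers come from the labels. At features of 5 CPM or more, deviations from the group means correlated by 0.398, 0.182 and 0.286 between same-numbered auxin and untreated libraries, all above the 0.1 set for pairing. With 1 CPM as the floor the second pair had 0.048. Auxin replicate 2 correlated more with untreated replicate 3 than with its own number at both floors. The values were 0.33 against 0.182 at 5 CPM and 0.168 against 0.048 at 1 CPM.

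Named were all features past the threshold, then features past it with the block up to 30 in all, DIS3, every tested AHR target, and in each other list up to 4 members with the smallest p and a mean of at least 1 CPM. Genes outside that rule whose change is given are marked. The libraries, gene lists and this rule were chosen with earlier results of these data known.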

Additional observations from a re-analysis of the deposited data

Results flagged for a closer look

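Of the 30 features named because they passed alone (11) or with the block (19), 22 are given here, since the auxin response differed between DIS3-AID and control cells by the test of the difference itself in edgeR (adjusted p under 0.05). Other named genes, CYP1A1 among them, are not counted here. Each value is the difference of log2 changes, DIS3-AID response minus control response. Among small RNA entries it was 2.86 for SNORD3B-2, 3.1 for each of the 2 SNORD3D identifiers and 3.03 for AC007952.4, which overlaps SNORD3D. Among assembled loci it was 3.07 for XLOC_009819, 2.04 for XLOC_011138 and 3.11 for XLOC_003327. Among features that fell in control cells it was 0.83 for NABP1, 0.69 for ZC3HAV1L, 0.95 for AC093249.2 and 0.91 for HJV. Of those lower in control cells with the block, ARMC7 had 0.29, KRT80 0.55, ATXN1L 0.31, E2F8 0.23 and ZNF587B 0.53. Of those higher in control cells, alone or with the block, the difference was -0.65 for ARRDC3, -0.65 for DUSP1, -0.55 for KLF6, -0.6 for PPP1R15A, -0.24 for TSC22D1 and -0.4 for VPS13A. All were chosen by their control response, which is a term of the difference, so nothing is read from their number. The degron on DIS3 and other differences between the DIS3-AID clone and the control line cannot be told apart here.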

How the results depend on the processing

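The number of features past the threshold depends on the processing. Against 11 (5 higher, 6 lower), RLE factors gave 4 (2 and 2), no filter 245 (93 and 152), a minimum count of 50 gave 6 (2 and 4) and DESeq2 70 (31 and 39). Library sizes alone gave 8 (4 and 4) and the 6 control libraries alone 11 (5 and 6). Leaving out 1 library gave 1 to 34 (1 to 7 higher, 0 to 27 lower): 4 without auxin replicate 1, 4 without auxin replicate 2, 34 without auxin replicate 3, and 3, 1 and 3 without untreated replicates 1, 2 and 3. With the replicate block the count was 107 (28 and 79) in the 12 libraries and 264 (66 and 198) in the 6 control libraries. The cause was not tested.

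Lists with a member past the threshold numbered 4. RLE factors gave 1, no filter 16, a minimum count of 50 gave 2, DESeq2 11, the replicate block 11 in 12 libraries and 17 in 6, and leaving out 1 library 0 to 5. The 30 features named because they passed alone (11) or with the block (19 of 107) kept their direction in all 14 alternatives. XLOC_009819 passed in 14 of them, NABP1 and AC007952.4 in 13, TIPARP in 10, SNORD3B-2 in 8, HJV in 4 and the other 5 of the 11 in 6 each.

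Among named genes, values that changed sign were near 0: NFE2L2, from -0.098 to 0.014 over the fits without 1 library and positive without auxin replicate 1, and with library sizes alone ARRDC3 at 0.032 in DIS3-AID cells, TIPARP at 0.016 in the difference between DIS3-AID and control cells, and ZC3HAV1L at 0.001 and AC093249.2 at 0.008 on chromatin. List medians changed sign too on leaving out 1 library: from -0.256 (without auxin replicate 3) to 0.441 for mitochondrially encoded mRNAs, -0.14 to 0.237 for endothelial markers, -0.058 to 0.218 for fibroblast markers, -0.112 to 0.03 for spliceosomal snRNA genes, and in other lists with medians near 0. The cause was not tested. Depth limits features of few counts: 65.9% of features had intervals within -0.5 and 0.5. With a minimum count of 50 no blood cell marker was tested, so that list has no value under it.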
